A study of Sus scrofa with 27 samples.

Results

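Versican (VCAN), the large chondroitin sulfate proteoglycan of the follicular matrix, was examined together with its link protein HAPLN1, the proteases ADAMTS1, ADAMTS4, ADAMTS5, ADAMTS9, ADAMTS15 and ADAMTS20, and the inhibitors TIMP1 and TIMP3, in mural granulosa cells of sows. These 10 genes are 10 of 35670 Ensembl identifiers in the count files, and were found by matching the identifiers to their symbols. The set was chosen by measured values of this same comparison: ADAMTS20 stood among the largest falls in feed-restricted sows, and the others were added as its paralogs, substrate, link protein and inhibitors. The values of ADAMTS20 between the diets are therefore a description with no test. Falls were ordered only over genes averaging 20 or more normalized counts whose adjusted p was under 0.05 in edgeR and again in DESeq2. In that order ADAMTS20 stood second, between CDH9 (log2 fold change −3.15) and IL20RB (−2.13). The rank is thus not one over all tested genes, and entry to the order rested on the same comparison.

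Versican carries chondroitin sulfate chains, binds hyaluronan through one end and is held there by link proteins, so that it builds a hydrated matrix around cells. The ADAMTS proteases are secreted zinc metalloproteinases, and the 6 members here are among those known to cut versican. TIMP3 is the TIMP known for inhibiting ADAMTS proteases, whereas TIMP1 acts mainly on matrix metalloproteinases. In the ovary, ADAMTS1 is known as a gene switched on through the progesterone receptor after the luteinizing hormone surge.

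The libraries came from wild type, primiparous Large White times Norwegian Landrace sows at day 2 post-weaning. Full-fed sows (FF, 6.5 kg per day, n = 13) and feed-restricted sows (RES, 3.25 kg per day, n = 14) differed in their ration over the last 2 weeks of lactation. All sows were fed alike after weaning, at full ration according to the labels and at a reduced common allowance according to the study's methods. The study took the RES sows that lost most and the FF sows that lost least body weight, left out 1 FF sow for its RNA integrity, and captured mural granulosa cells by laser microdissection from 1 right-ovary follicle, the largest one judged healthy. By the labels the sow left out was number 9, but the study's quality listing gives FF sow 10, whose library is analysed here, the lowest integrity of the FF sows, so which one was meant is unsure. Each library is 1 follicle of 1 sow, and diet, weight loss and follicle size cannot be told apart. The question addressed is how feed restriction in lactation alters these cells.

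Library totals ran from 12299220 to 16021200 counts in FF (median 13490513) and from 12942198 to 18120922 in RES (median 15232600). By the study's read statistics the libraries were split into 2 groups of base quality. The upper one had 7 FF and 7 RES libraries, and the lower one 6 FF and 7 RES libraries. The lower group was not uniform, since RES sows 3 and 5 had the lowest base quality of all 27 libraries. The gap between them and the rest of the lower group was wider than the gap between the 2 groups. Every fit of the lower group includes both. The granulosa label was checked on 7 markers, whose summed level was 29763 to 53874 normalized counts in FF and 26432 to 77493 in RES. Of these 7, 0 passed edgeR's test, 1 had an unadjusted p under 0.05 and 0 passed with DESeq2. Markers of neighbouring cells were also present. The 7 theca markers, of which CYP11A1 and STAR are also known from granulosa cells, summed to 2637 to 13774 in FF and 1413 to 12845 in RES, the 10 stroma and smooth muscle markers to 13862 to 43459 and 11330 to 39446, and the endothelial markers to 831 to 1513 and 566 to 1780.1. In RES, 1 of 7 theca markers (CYP11A1), 1 of 10 stroma markers and 2 of 6 endothelial markers tested (CDH5 among them) were lower by edgeR. By that test 0 were higher, and 14.1% of all tested genes were called. DESeq2 called 2, 1 and 3 of them, CYP17A1 and TEK being the additions. With edgeR 3, 4 and 4 had an unadjusted p under 0.05. CYP17A1 went from 966 ± 701 to 456 ± 441 normalized counts (log2 fold change −1.11, edgeR adjusted p = 0.0523). The CYP11A1 call (−1.28, adjusted p = 0.0092) was lost in both quality groups alone (upper −1.36, adjusted p = 0.0604, and lower −1.25, adjusted p = 0.169), and that of CDH5 (−0.56, adjusted p = 0.0113) in the lower one (−0.39, adjusted p = 0.486). Of 2 erythroid markers HBB, a hemoglobin chain, fell from 167 ± 257 to 47.2 ± 46.1 (log2 fold change −1.89, edgeR adjusted p = 0.0171). Their sum ran from 35.5 to 1045 in FF, the highest in FF sow 14, and from 9.63 to 147 in RES. The T cell marker CD3E and the oocyte genes ZP2, ZP3 and NOBOX were at or near 0, whereas GDF9, known as an oocyte growth factor gene, averaged 229 ± 53.9 in FF and 209.9 ± 43.9 in RES (log2 fold change −0.17, edgeR adjusted p = 0.365). RES sow 7 had the highest theca, stroma, endothelial and immune sums of all RES libraries. The mean, the fold change and the level per kb of ADAMTS20 are given with and without it.

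The catalytic site of the proteases and the site they cut in versican are shown first. Read from the RefSeq genome Sscrofa11.1 along the coding strand, the 33 spliced bases of the zinc-binding site are given with the codons of its 3 zinc-binding histidines in capitals.
ADAMTS1: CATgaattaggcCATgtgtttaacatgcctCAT
ADAMTS4: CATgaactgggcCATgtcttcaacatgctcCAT
ADAMTS5: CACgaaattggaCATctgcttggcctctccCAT
ADAMTS9: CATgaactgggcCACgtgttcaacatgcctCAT
ADAMTS15: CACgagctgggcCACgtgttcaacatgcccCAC
ADAMTS20: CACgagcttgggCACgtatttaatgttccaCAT
All 6 sites were interrupted by an intron. In ADAMTS1 (minus strand, chr13:190281894-190282320), ADAMTS4 (plus, chr4:89263335-89263928), ADAMTS5 (minus, chr13:190386016-190397852) and ADAMTS15 (plus, chr9:57139429-57139871) the first coding exon involved held 10 of the 33 bases. In ADAMTS9 (minus, chr13:46164469-46170036) and ADAMTS20 (minus, chr5:74612848-74614843) it held 17, and in both the site joined coding exons 8 and 9 of 39. The 2 genes shared 23 of the 33 bases, and ADAMTS20 shared 24 with ADAMTS15, 22 with ADAMTS1, 21 with ADAMTS4 and 19 with ADAMTS5. ADAMTS9 shared 29 bases each with ADAMTS1, ADAMTS4 and ADAMTS15.

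In VCAN, the sequence coding for the known ADAMTS cleavage site was found once, in coding exon 8 of 15 (plus strand, chr2:91768274-91768294), with the codons on either side of the cut in capitals.
VCAN: gacccagaagccgcaGAAGCT
VCAN itself spans chr2:91682177-91811674 on the plus strand, and HAPLN1 (chr2:91857495-91935485, minus strand) lies 45.8 kb further on with no annotated gene between. ADAMTS1 (chr13:190277175-190285957) and ADAMTS5 (chr13:190353019-190413110) lie 67.1 kb apart on the minus strand, with 1 coding gene between. The remaining genes are ADAMTS4 at chr4:89260354-89269238 and ADAMTS15 at chr9:57127527-57152550 on the plus strand, ADAMTS9 at chr13:46033753-46209238 and ADAMTS20 at chr5:74502098-74672703 on the minus strand, TIMP1 at chrX:42103251-42106289 on the plus strand and TIMP3 at chr5:12185816-12242599 on the minus strand. Counting used no strand, so reads in the 168 exon bases that ADAMTS1 shares with LOC110256366, and in the 147 and 86 that ADAMTS9 shares with lncRNAs, all on the opposite strand, cannot be assigned to 1 gene. TIMP1 and TIMP3 lie within SYN1 and SYN3 but share 0 exon bases with them.

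The substrate was among the most abundant transcripts of these cells. VCAN ranked number 10 of the 11384 tested genes in normalized count (counts divided by a size factor for each library). It ranged in FF from 32427 to 75507 with a median of 48752, and in RES from 41210 to 78962 with a median of 54146. The 2 ranges overlapped over most of their length, although 12 of 14 RES sows lay above the FF median. The mean ± SD was 50758 ± 15720 over the 13 FF sows and 56380 ± 10348 over the 14 RES sows, and all later values after ± are SDs over the same numbers. The log2 fold change, RES minus FF, was 0.11 (SE 0.13, approximate 95% confidence interval −0.16 to 0.37), which did not pass edgeR's quasi-likelihood test with Benjamini-Hochberg adjustment over all tested genes (adjusted p = 0.629). The sign was not the same in both quality groups: it stood at −0.14 (SE 0.18) among the upper and at 0.41 (SE 0.18) among the lower libraries, and the test of that difference gave p = 0.0391 and adjusted p = 0.39.

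The link protein was far less abundant than its proteoglycan. HAPLN1 ranged from 40.8 to 198 normalized counts in FF (median 100.2) and from 46.9 to 244 in RES (median 144). The groups overlapped, with 12 of 14 RES sows above the FF median. Mean values were 99.9 ± 46.9 and 147 ± 52.6, and the log2 fold change of 0.50 (SE 0.22) missed the threshold (edgeR adjusted p = 0.125). It passed without FF sow 10, the highest FF library (0.64, adjusted p = 0.0382), and with limma's voom and sample weights (0.69, adjusted p = 0.0176). Adjusted p ran from 0.0382 to 0.214 over the 27 fits that each left out 1 library.

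**Figure D1:**
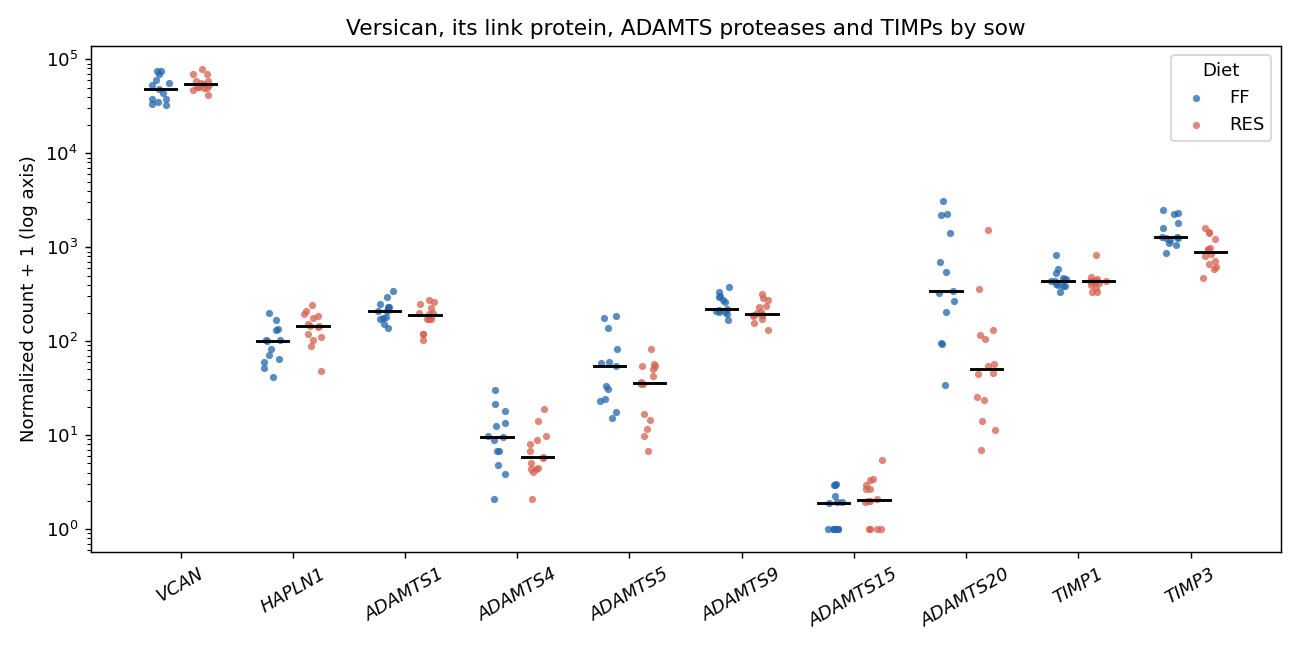
Normalized count plus 1 on a log axis for the 10 genes, 1 point per sow, 13 FF in blue and 14 RES in red, with the median as a black bar. VCAN sits at the top with narrow, overlapping groups, whereas ADAMTS20 is spread from 5.94 to 3077 normalized counts and has its RES median of 49.1 below its FF median of 337.

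ADAMTS20, a protease known from its role in melanoblast migration and coat spotting, varied more between sows than any other member. In FF its normalized counts were 3077 in sow 12, 2233 in sow 2, 2185 in sow 7, 1425 in sow 8, 689.8 in sow 11 and 544 in sow 1. The 7 others lay between 32.8 in sow 3 and 337 in sow 6. In RES, sow 7 had 1535 and sow 13 had 354, and the remaining 12 lay between 5.94 and 132. Thus 12 of 14 RES sows fell below the FF median, 5 below the lowest FF sow, and 3 FF sows were above the highest RES sow. The groups nevertheless overlapped from 32.8 to 1535.

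The mean of ADAMTS20 was 885 ± 1009 in FF and 179.7 ± 400.1 in RES, so that the SD exceeded the mean in both. The medians, 337 and 49.1, stood in a ratio of 0.146, and the fitted log2 fold change was −2.31 (SE 0.74). Without RES sow 7, the RES mean was 75.5 ± 93.2, the median 45.0 and the highest value 354, and the log2 fold change was −3.61. Within the upper quality group alone the fit gave −4.13 (SE 0.80), with 834 ± 963 in FF and 48.5 ± 29.5 in RES. Within the lower group it gave −1.61 (SE 1.01), with 944 ± 1149 in FF and 311 ± 553 in RES, RES sow 7 included. Without that sow the 6 lower quality RES libraries averaged 107 ± 133, and the fit gave −3.20 (SE 0.91). The libraries held 7 to 2738 counts of the gene.

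The spread of ADAMTS20 was also large for its level. The SD of log2(normalized count + 1) was 1.99 in FF and 2.05 in RES, and was above 99.9% of the tested genes at a like level (0.5 to 2 times its mean) in both diets. The highest FF sow exceeded the lowest 93.8 times, and the highest RES sow, sow 7, the lowest 258 times. Without RES sow 7 the highest RES value was 354 and the SD in RES was 1.59. ADAMTS5 came next, at percentiles 98.3 in FF and 97.7 in RES, and HAPLN1 stood at 92.4 and 89.9. VCAN was at percentile 9.09 in both diets, but among 11 genes only, since few are as abundant. Of the 9 tested members, 8 had an SD above the median of like genes in both diets, VCAN being the exception. ADAMTS20 is 1 of the 8. The share of all tested genes above it in both diets was not counted, so the 8 cannot be set against genes at large.

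ADAMTS1 and ADAMTS9 varied least between sows among the 6 proteases of the set, and neither passed the test. ADAMTS1 ranged from 136 to 338 normalized counts in FF (median 211) and from 102 to 274 in RES (median 190.4). Its mean of 215 ± 55.9 in FF against 188 ± 51.9 in RES gave a log2 fold change of −0.24 (SE 0.15, edgeR adjusted p = 0.282, approximate 95% confidence interval −0.52 to 0.05). ADAMTS9, the closest relative of ADAMTS20 in the family, ranged from 168 to 372 in FF and from 129.7 to 316 in RES. Its mean was 249 ± 61.2 in FF and 211 ± 52.3 in RES, and the log2 fold change was −0.28 (SE 0.14, edgeR adjusted p = 0.16, interval −0.55 to −0.02). In both genes most of the range was shared by the diets, with 3 RES sows below the lowest FF sow for ADAMTS1 and 2 for ADAMTS9. The intervals quoted are for single genes and are not adjusted.

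ADAMTS5, an aggrecan- and versican-cleaving protease, had fewer counts and more spread. It ranged from 14.1 to 183 in FF (median 53.7) and from 5.71 to 82.6 in RES (median 35.0). The 3 highest FF sows, FF sow 14 with 183, FF sow 6 with 174 and FF sow 3 with 138, were above every RES sow, and 4 RES sows were below the lowest FF sow. Mean values were 68.0 ± 59.4 and 35.4 ± 22.6, with a log2 fold change of −0.96 (SE 0.41, edgeR adjusted p = 0.114). The value was −1.60 (SE 0.55, adjusted p = 0.0536) within the upper quality group and 0.08 (SE 0.48, adjusted p = 0.968) within the lower, and the test of that difference gave p = 0.0388 and adjusted p = 0.39.

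ADAMTS4 and ADAMTS15 were near the limit of detection. ADAMTS4, the other main aggrecanase, had a mean of 10.3 ± 7.82 normalized counts in FF (1.1 to 29.1) and 6.33 ± 4.51 in RES (1.09 to 18). Its log2 fold change was −0.75 (SE 0.37, edgeR adjusted p = 0.17), and the diets overlapped up to 18, with 2 FF sows (sows 7 and 2) above every RES sow. ADAMTS15 had 0 to 5 counts per library, was at 0 in 6 FF and 4 RES libraries, and did not reach the mean count of 5 needed for the test. A count of 0 allows up to 3 counts in that library. With no count filter, the log2 fold change was 0.70 (SE 0.54, edgeR adjusted p = 0.442), a difference not detectable at this depth.

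TIMP3, the inhibitor of ADAMTS proteases that binds the matrix, was lower in RES. It ranged from 874 to 2479.8 normalized counts in FF, with a median of 1270, and from 475 to 1608 in RES, with a median of 891. Of the 14 RES sows, 7 were below the lowest FF sow, 11 were below the FF median, and the 4 highest FF sows (sows 6, 14, 8 and 1) were above every RES sow. The mean fell from 1518 ± 528 to 949.7 ± 352, a log2 fold change of −0.71 (SE 0.19, edgeR adjusted p = 0.0136). RES sow 7 again had the highest RES value, and without it the log2 fold change was −0.79. Within quality groups it was −0.92 (SE 0.29, adjusted p = 0.0422) among the upper and −0.50 (SE 0.21, adjusted p = 0.344) among the lower libraries, where the call was lost. The test of the difference between the quality groups gave adjusted p = 0.679. The call held in each of the 27 fits without 1 library.

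TIMP1, which is known mainly as an inhibitor of matrix metalloproteinases, had nearly equal levels in the diets. It ranged from 332 to 822 in FF and from 335 to 832 in RES, both with a median of 434. The mean was 469 ± 125 in FF and 443 ± 119.6 in RES, for a log2 fold change of −0.13 (SE 0.12, edgeR adjusted p = 0.516). A single sow stood above the rest in each diet, FF sow 11 with 822 and RES sow 3 with 832.

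Of the 8 members tested, ADAMTS20 aside, 1 was called, and it was lower in RES. Among all 11384 tested genes, 14.1% were called, 8.29% as higher and 5.85% as lower in RES, so the members' count is near that of genes at large. The median log2 fold change of the 9 members fitted, ADAMTS20 included, was −0.28 beside −0.015 over all tested genes, and 2 of the 9 values, those of VCAN and HAPLN1, were above 0. In these bulk libraries, fewer cells of a type and less RNA per cell cannot be told apart. RES sow 7 held the highest RES value for 5 members, ADAMTS1, ADAMTS4, ADAMTS9, ADAMTS20 and TIMP3, and had the highest theca, stroma, endothelial and immune marker sums in its diet. The part of neighbouring cells in these values was not tested.

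**Figure D2:**
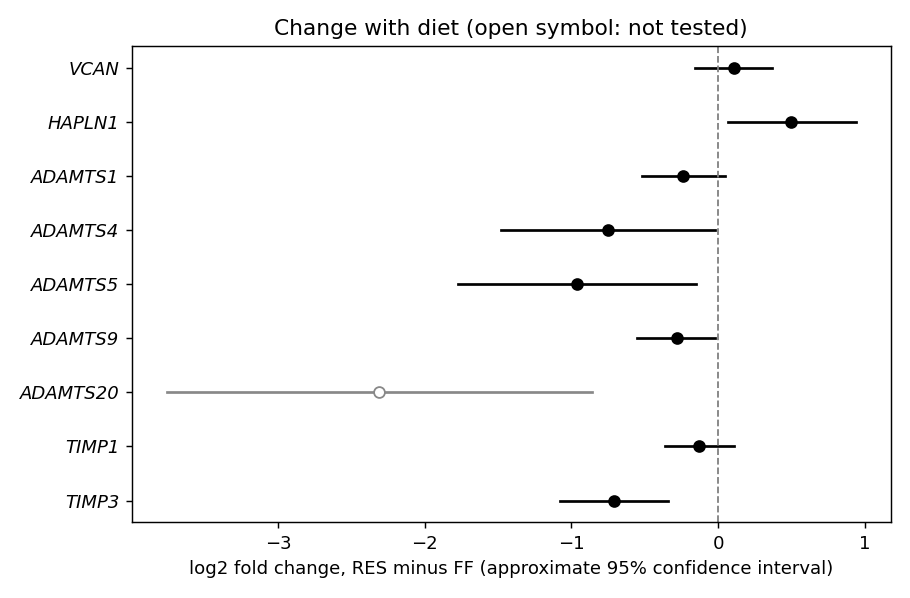
Log2 fold change, RES minus FF, of the 9 members with a mean count of at least 5, with approximate 95% confidence intervals that are not adjusted over genes. The filled point of TIMP3 at −0.71 is the one past the adjusted threshold, and the open point of ADAMTS20 at −2.31 is shown without a test because the gene was chosen for it.

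The promoters of ADAMTS20 and TIMP3, the gene the set was built around and the one member called by the test, are shown for the letters they share. Each is the 250 bases before the RefSeq gene start in Sscrofa11.1, read along the gene's strand, with GC boxes (GGGCGG) and CCAAT boxes (CCAAT) in capitals on either strand. ADAMTS20 is at chr5:74672704-74672953 and TIMP3 at chr5:12242600-12242849, both on the minus strand.
ADAMTS20: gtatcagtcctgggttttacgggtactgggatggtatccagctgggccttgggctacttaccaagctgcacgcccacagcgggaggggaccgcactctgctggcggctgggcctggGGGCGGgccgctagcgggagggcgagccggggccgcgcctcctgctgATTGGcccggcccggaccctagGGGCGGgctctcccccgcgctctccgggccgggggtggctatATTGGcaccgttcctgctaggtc
TIMP3: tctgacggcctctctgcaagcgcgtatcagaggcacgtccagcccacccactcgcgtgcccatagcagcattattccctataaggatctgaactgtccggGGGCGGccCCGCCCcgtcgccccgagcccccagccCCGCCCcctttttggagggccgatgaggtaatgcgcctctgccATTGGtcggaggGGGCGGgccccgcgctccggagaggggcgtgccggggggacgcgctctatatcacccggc
ADAMTS20 held 2 GC boxes and 2 CCAAT boxes, and TIMP3 held 4 and 1. Of 19540 promoters of this length, 45.9% held a GC box and 31.9% a CCAAT box. Neither held TATAAA, the cyclic AMP response element TGACGTCA or the FOXO site GTAAACA, which were in 9.76%, 1.70% and 2.28% of all promoters. GC content was 70.8% in ADAMTS20 and 69.2% in TIMP3, beside a median of 57.6%. These matches are a description of the letters.

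Levels were compared between genes per kb of exon. In FF the order of mean levels, as normalized counts per kb, was VCAN (4005 ± 1240.3), TIMP1 (654 ± 174), TIMP3 (328 ± 114), ADAMTS20 (107 ± 121), ADAMTS1 (53.6 ± 14.0), ADAMTS9 (25 ± 6.14), HAPLN1 (17.9 ± 8.42), ADAMTS5 (6.70 ± 5.85), ADAMTS4 (2.70 ± 2.04) and ADAMTS15 (0.132 ± 0.142). The neighbours TIMP3 and ADAMTS20, ADAMTS20 and ADAMTS1, ADAMTS9 and HAPLN1, HAPLN1 and ADAMTS5, and ADAMTS5 and ADAMTS4 did not differ by more than their summed SDs. In RES the per kb level of ADAMTS20 (21.6 ± 48.2) came after ADAMTS1 (46.9 ± 13.0) and HAPLN1 (26.4 ± 9.44) and beside ADAMTS9 (21.2 ± 5.24), but without RES sow 7 it was 9.09 ± 11.2, beside 20.4 ± 4.44 for ADAMTS9.

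The 6 proteases summed to a median of 127 normalized counts per kb in FF (80.7 to 456) and 79.6 in RES (56.3 to 295, the highest in RES sow 7). Without ADAMTS20 the medians were 85.2 in FF and 72.0 in RES, with ranges of 68.1 to 119 and 53.6 to 109.8. ADAMTS20 was the most abundant of the 6 per kb in 7 of 13 FF libraries, and ADAMTS1 in the other 6. In RES, ADAMTS1 led in 13 of 14 libraries and ADAMTS20 in RES sow 7. The share of ADAMTS20 in the sum ranged from 4.90% to 81.3% in FF (median 33.3%) and from 1.06% to 62.7% in RES (median 7.62%). The median share of ADAMTS1 was 37.8% in FF and 59.3% in RES, that of ADAMTS9 17.4% and 24.7%, that of ADAMTS5 3.02% and 3.89%, and that of ADAMTS4 1.36% and 1.54%. As shares of 1 sum, these values move against each other by construction, and the shift between diets follows from the gene chosen for its fall.

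**Figure D3:**
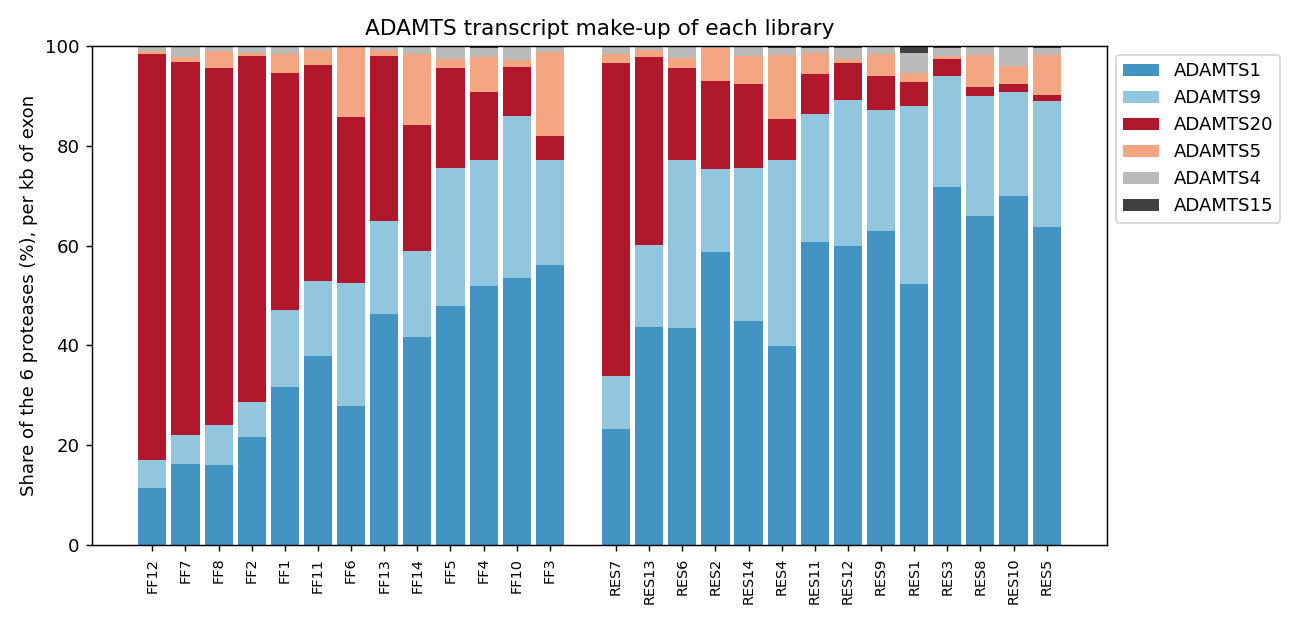
Share of each of the 6 proteases in their summed level per kb of exon (%), 1 bar per library, ordered within each diet by the share of ADAMTS20. ADAMTS20, in dark red, takes up to 81.3% in FF sow 12 and leads in 1 RES library, sow 7, with 62.7%.

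The members were next compared among sows of the same diet, which the choice of genes did not use. Over 34 correlations of VCAN or ADAMTS20 with the other members, on log2(normalized count + 1), Pearson's r ran from −0.54 to 0.54, and 0 had an unadjusted permutation p under 0.05. The smallest p was 0.0543, for ADAMTS20 with ADAMTS4 in FF (r = 0.54, rho = 0.52, permutation p of rho = 0.0745, adjusted p = 0.708). Without the 2 sows farthest from the median of ADAMTS20, this r was 0.43, and without FF sow 10 it was 0.63 (permutation p = 0.0299, adjusted p = 0.509). With TMM-scaled counts it was 0.60 (permutation p = 0.0294, adjusted p = 0.518). Among the upper quality FF libraries it was 0.66, and among the lower ones 0.25.

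For substrate and protease, VCAN with ADAMTS20, r was −0.54 in FF (rho = −0.53, permutation p = 0.060 and 0.0675, adjusted p = 0.708) and −0.33 in RES (rho = −0.27, permutation p = 0.253 and 0.340, adjusted p = 0.773). Without FF sows 3 and 4, which had the most versican, the FF value was −0.22, and without FF sow 10 it was −0.67 (permutation p = 0.0182, adjusted p = 0.509). Among the FF libraries r was −0.70 at upper and −0.26 at lower quality, and among the RES libraries 0.44 at upper and −0.76 at lower quality. For ADAMTS20 with ADAMTS9 in RES, r was 0.51 (rho = 0.44, permutation p = 0.0624 and 0.116, adjusted p = 0.708) and fell to 0.19 without RES sows 7 and 5. For VCAN with HAPLN1, r was 0.19 in FF and 0.42 in RES (permutation p = 0.537 and 0.133). None of the 34 relations passed the adjustment.

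Genes most like each of the pair were sought among 9512 tested genes averaging 20 or more normalized counts, by Pearson's r over the 27 libraries after the mean of each diet was taken off. No p is given, as the highest of many values were picked. For VCAN these were CALU (r = 0.77), which encodes the secretory pathway protein calumenin, CHN2 (0.75), RIPOR2 (0.72), B3GNT5 (0.71), a glycosyltransferase gene, and ALPK1 (0.71). For ADAMTS20 they included EMCN (0.79), CHIC1 (0.72), PPFIBP1 (0.71) and ODF2L (0.70). EMCN encodes endomucin, a sialomucin known from endothelium. Its r with ADAMTS20 was 0.70 in FF and 0.89 in RES, and its level was 509 ± 159 normalized counts in FF and 305 ± 101 in RES. Without RES sow 7 the r with ADAMTS20 in RES went from 0.89 to 0.80 for EMCN, from 0.71 to 0.44 for CHIC1, from 0.74 to 0.72 for PPFIBP1 and from 0.73 to 0.59 for ODF2L.

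The libraries high in ADAMTS20 were therefore set beside the marker sums. The theca sum was highest in FF sow 2 (13774), RES sow 7 (12845) and FF sow 12 (12360), which are 3 of the 5 libraries highest in ADAMTS20. Next came FF sow 11 (8507) and FF sow 5 (8178), with 689.8 and 202 counts of ADAMTS20. RES sow 10, second in RES with 5047, had 13.1. STAR, also known from granulosa cells, had the highest mean of the 7 theca markers (2553 ± 2533 in FF and 1389.7 ± 1926 in RES). The other two of the 5, FF sows 7 and 8, had theca sums of 4044 and 3216, below the FF median of 4091. The endothelial sum was highest in RES sow 7 (1780.1) and FF sow 12 (1513), and was 1110 in FF sow 2, 985 in FF sow 7 and 1072 in FF sow 8. Stroma sums were below the FF median of 24844 in FF sows 7 (13862, the lowest of FF), 8 (15461), 12 (17490) and 2 (19781), and 39446, the highest of RES, in RES sow 7. The part of these cells in the ADAMTS20 values was not tested.

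**Figure D4:**
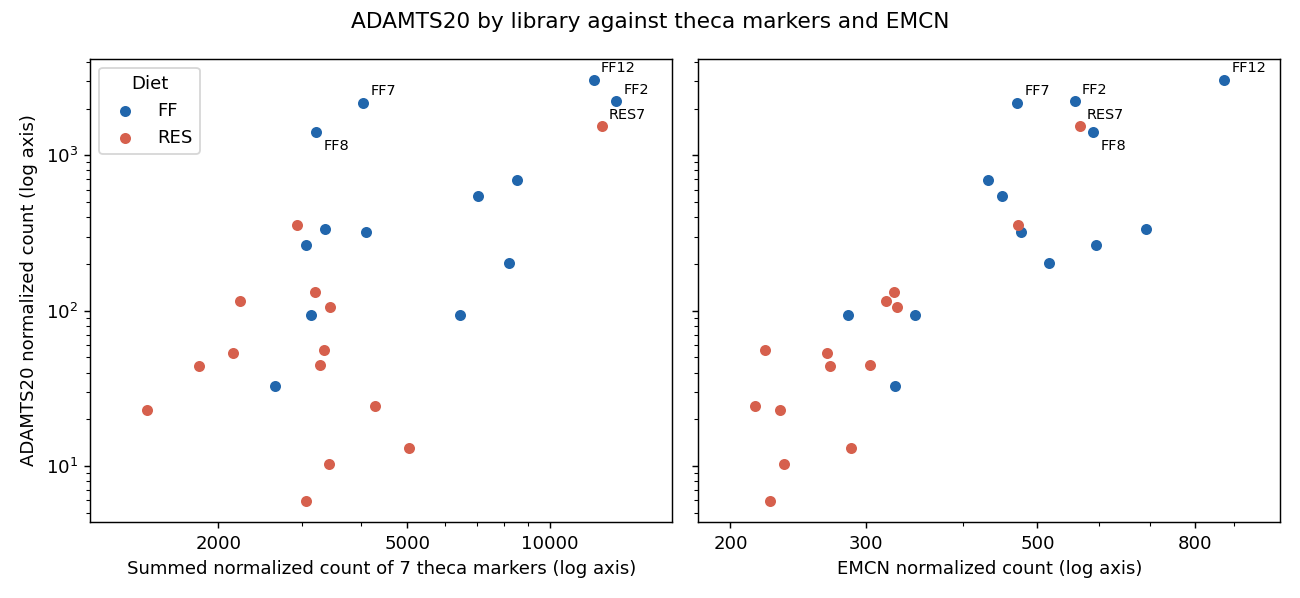
ADAMTS20 normalized count against the summed normalized count of 7 theca markers (left) and against EMCN (right), all axes log, 1 point per library, FF blue and RES red, with the 5 libraries highest in ADAMTS20 named. FF sow 2, FF sow 12 and RES sow 7 are high for both theca markers and ADAMTS20, while FF sows 7 and 8 are high in ADAMTS20 with theca sums of 4044 and 3216.

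Other genes of the same matrix, and ovulatory regulators, were taken as 8 lists of 101 genes, of which 78 were tested. Of these, 3 were higher and 7 lower in RES, or 12.8% called beside the 14.1% of all tested genes. By edgeR within the lower quality group alone 0 of the 78 were called and 12 had an unadjusted p under 0.05, and within the upper group alone 18 were called and 26 had one. None of the 9 other ADAMTS proteases tested and none of the 6 ADAMTS-like genes was called by edgeR or by DESeq2, while 2 and 3 of them had an unadjusted p under 0.05 with edgeR. The most abundant of the former was ADAMTS6, at 623 ± 104 normalized counts in FF and 676 ± 70.5 in RES (log2 fold change 0.07, edgeR adjusted p = 0.59). Of the latter, ADAMTSL1, which encodes a related protein with no protease domain, averaged 1123 ± 743 in FF and 517 ± 718 in RES. Its range was 162 to 2597 in FF and 45.1 to 2804 in RES, the top value again in RES sow 7. Its log2 fold change was −1.13 (SE 0.51, edgeR adjusted p = 0.135), and without RES sow 7 it was −1.75 with adjusted p = 0.00692. For ADAMTSL1 the upper quality libraries gave −2.49 (adjusted p = 0.0186), the lower −0.25 (adjusted p = 0.917), and voom −2.07 (adjusted p = 0.00083).

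Among the relatives of versican and HAPLN1, the cartilage proteoglycan gene ACAN and the link protein gene HAPLN2 were at 0 in every library, and 2 of 6 genes were tested. HAPLN4, another link protein known from the brain, rose from 21.1 ± 12.0 normalized counts in FF (6.74 to 51.9) to 60.3 ± 31.3 in RES (17.0 to 108), a log2 fold change of 1.47 (SE 0.30, edgeR adjusted p = 0.0025). In 8 of 14 RES sows it was above the highest FF sow. HAPLN3 had 18.4 ± 8.69 in FF and 18.1 ± 8.56 in RES (log2 fold change −0.07, adjusted p = 0.887).

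Of 14 hyaluronan genes tested, 1 was higher and 2 were lower. HMMR, which encodes a hyaluronan receptor that also acts on the mitotic spindle, rose from 1327 ± 570.3 in FF to 2785 ± 788 in RES (log2 fold change 1.02, SE 0.19, edgeR adjusted p = 0.00194), with 9 of 14 RES sows above the highest FF sow. The hyaluronan synthase gene HAS3 fell from 28.1 ± 6.50 to 20.4 ± 5.69 (−0.50, adjusted p = 0.0295). The call was lost in 4 of 27 fits without 1 library (adjusted p 0.00608 to 0.0648 over the 27) and in 3 of 11 other alternatives, namely the upper quality group alone (−0.55, adjusted p = 0.0649), the lower (−0.48, adjusted p = 0.473) and sow numbers as a block (−0.47, adjusted p = 0.122). ITIH5, of the family whose heavy chains are joined to hyaluronan, fell from 71.2 ± 84.5 to 26.2 ± 18.5 (−1.49, adjusted p = 0.0158), with 3 FF sows above every RES sow. The highest of these, 317 in FF sow 10, was far above the FF median of 37.6, and without it the log2 fold change was −0.99 (adjusted p = 0.04). It was −0.84 with voom (adjusted p = 0.0298), and the call was lost in the lower quality group alone (−1.50, adjusted p = 0.342) and with sow numbers as a block (−1.14, adjusted p = 0.0675). HAS2, the synthase known from cumulus expansion, had under 1 normalized count on average in both diets and was not tested.

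The chondroitin sulfate chains of versican are made by the 26 genes of the next list, of which 24 were tested, 1 was higher and 4 were lower in RES. PAPSS2, which makes the sulfate donor, fell from 2117 ± 474 to 1382 ± 432 (log2 fold change −0.65, SE 0.15, edgeR adjusted p = 0.00405), and 8 of 14 RES sows were below the lowest FF sow. CHST7, a chondroitin sulfotransferase gene, fell from 27.5 ± 11.3 to 12.7 ± 8.99 (−1.15, adjusted p = 0.00792), with 10 of 14 RES sows below the lowest FF sow. The chain polymerase gene CHSY3 fell from 1357 ± 741 to 820.1 ± 287 (−0.76, adjusted p = 0.0443), and each of the 14 RES values lay under the FF median of 1411. That call was lost in 17 of 27 fits without 1 library (adjusted p 0.0109 to 0.0914 over the 27) and in 6 of 11 other alternatives. Over these 11 the log2 fold change ran from −1.44 to −0.03, the latter in the lower quality group alone. The upper quality group alone kept the call. FAM20B, which encodes the xylose kinase of the linker, rose from 246 ± 27 to 304 ± 56.9 (0.26, adjusted p = 0.035), a call lost in 10 of the 27 fits (0.00889 to 0.0651). It was also lost in 3 of 11 other alternatives, with upper-quartile factors (adjusted p = 0.0646), with the block (adjusted p = 0.0768) and at lower quality (0.12, adjusted p = 0.789, beside 0.38 at upper quality). SLC35D1, a nucleotide sugar transporter gene named here after its values were seen, fell from 198 ± 73.7 to 141 ± 23.4 (−0.53, adjusted p = 0.0185). The value for SLC35D1 was −0.77 (adjusted p = 0.0228) at upper and −0.19 (adjusted p = 0.697) at lower quality, and its call was also lost with sow numbers as a block (adjusted p = 0.0637). The 4-O-sulfotransferase gene CHST11, which had the highest mean of the list in RES as PAPSS2 had in FF, stood at 1047 ± 334 in FF and 1503 ± 584 in RES (0.46, adjusted p = 0.0909). It passed at upper quality (0.87, adjusted p = 0.0183) and with voom (0.47, adjusted p = 0.0454), whereas the lower quality value was 0.02 (adjusted p = 0.984). RES sow 7 had the highest RES value of HAS3, CHST7 and PAPSS2.

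**Figure D5:**
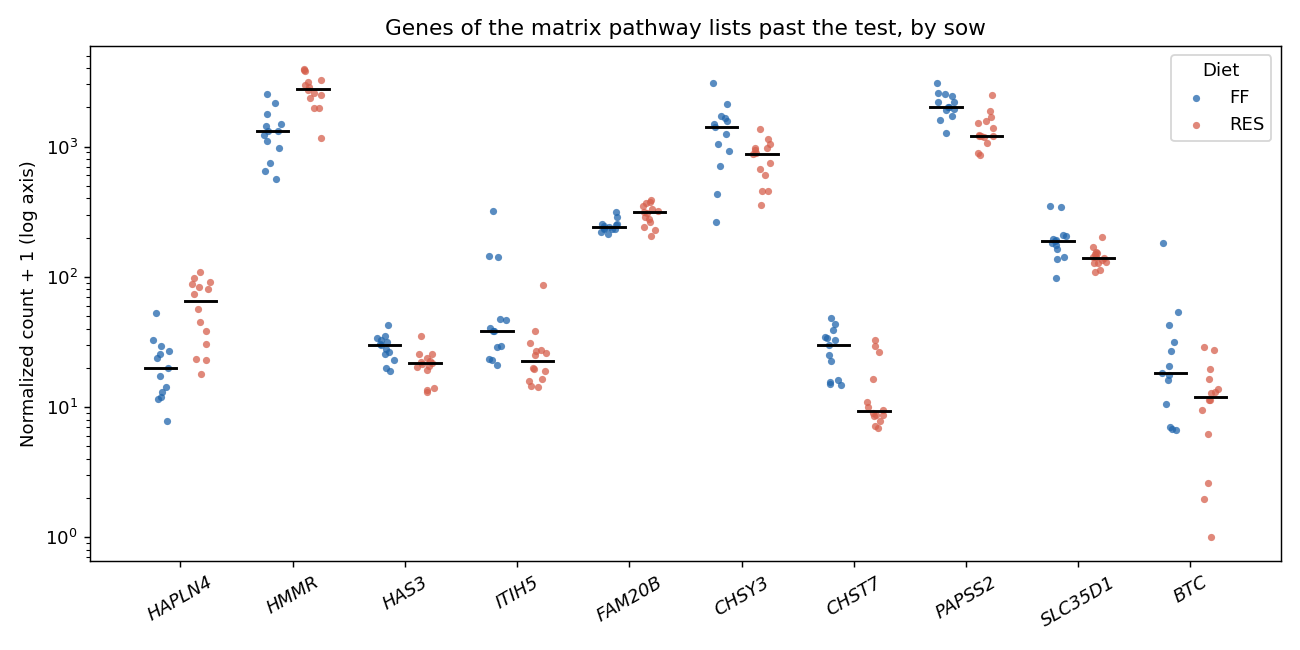
Normalized count plus 1 on a log axis for the 10 called genes of the 8 lists, 1 point per sow, FF blue and RES red, with the median as a black bar. BTC comes from the list of ovulatory regulators. HAPLN4, HMMR and FAM20B have the higher median in RES, and the other 7 the higher median in FF.

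None of the 9 binding partners and receptors of versican tested was called by edgeR or DESeq2 over the 27 libraries, and 1 had an unadjusted p under 0.05. ITGB1, an integrin subunit, was at 8305 ± 1228 normalized counts in FF and 8156 ± 1188 in RES (log2 fold change −0.07, edgeR adjusted p = 0.644), and was called in the upper quality group alone (−0.31, adjusted p = 0.0404). FBN1, fibrillin-1, had 1279 ± 352 and 1231 ± 305 (−0.09, adjusted p = 0.698). Of the 6 genes tested for activation, inhibition and uptake of the proteases none was called there by either tool and 0 had an unadjusted p under 0.05. RECK, a membrane-anchored inhibitor and the most abundant, had 595 ± 173 and 492 ± 177 (−0.31, adjusted p = 0.27), and passed in the upper quality group alone (−0.74, adjusted p = 0.0176). Among 8 ovulatory regulators tested, BTC, the epidermal growth factor-like ligand betacellulin, fell from 32.9 ± 46.8 to 11.5 ± 8.54 (−1.54, SE 0.51, adjusted p = 0.0403). The highest FF value of BTC, 181, came from sow 14, and without it the log2 fold change was −0.86 with adjusted p = 0.187. The BTC call was lost in 11 of the 27 fits without 1 library and in 4 of 11 other alternatives, both quality groups alone among them (−1.92, adjusted p = 0.119, and −0.93, adjusted p = 0.412). LHCGR, the luteinizing hormone receptor gene, averaged 15394 ± 6943 in FF and 9420 ± 6579 in RES (−0.73, SE 0.35, adjusted p = 0.154). Its call was made in the upper quality group alone (−1.74, adjusted p = 0.0147) and with voom (−1.22, adjusted p = 0.00706), but the lower group gave −0.05 (adjusted p = 0.976). PGR, the progesterone receptor gene known to act upstream of ADAMTS1, had 203 ± 41.1 and 222 ± 48.5 (0.09, adjusted p = 0.673).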

How the data were processed

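RNA-seq of 27 libraries was analysed. The authors trimmed reads with SOAPnuke, aligned them to Sscrofa11.1 with HISAT2 2.2.1, took uniquely mapped reads with SAMtools 1.16.1, removed duplicates with UMI-tools 1.1.4 and deposited raw counts per Ensembl gene from featureCounts 1.6.2, over exons with no strand option although the kit marked strand. Groups came from the labels. Of 35670 identifiers, the 11384 with a symbol, a mean count of at least 5 and no small RNA name were tested.

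RES was compared with FF across all genes by edgeR 4.0.16 (quasi-likelihood, TMM factors, two-sided, Benjamini-Hochberg, threshold 0.05) in R 4.3.3. A standard error is the size of the fold change, on the log2 scale, over the root of its F statistic. Normalized counts are counts over DESeq2 1.42.0 size factors, and log values used a pseudocount of 1. Permutation tests were two-sided with 100000 resamples. Values per kb used RefSeq exon length. Alternatives were DESeq2, limma 3.58.1 voom, other factors and filters, quality groups and each library left out. Members without RES sow 7 (also per kb, by likeness and in the lower quality group), the scaling of the spread and the interaction of diet with quality were added after seeing the data. The model scripts were tested on simulated data. The members and lists were chosen with earlier results of these data known. Named genes were the members, the called genes of each list (if over 4 were called, the 2 largest rises and 2 largest falls) with its 1 or 2 most abundant, defining markers, the 5 genes most like each of VCAN and ADAMTS20 (1 of which is not reported here), and the genes next to ADAMTS20 in the order of falls. ADAMTSL1, SLC35D1, PGR and genes at or near 0 were named beside that rule, after their values were seen. Sequences for 7 of 10 members' sites were read from the RefSeq genome of the same build.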

Additional observations from a re-analysis of the deposited data

How the results depend on the processing

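The log2 fold changes of the 9 fitted members kept their sign in all but 2 of 342 values over the alternatives. The exceptions were VCAN in the upper quality group alone (−0.14) and ADAMTS5 in the lower (0.08). The lower group without RES sow 7, counted there for ADAMTS20 alone, gave 0.01 for ADAMTS5. TIMP3 passed the test in all alternatives except the lower quality group alone, with RES sow 7 (−0.50, adjusted p = 0.344) and without it (−0.65, adjusted p = 0.0845). ADAMTS20 ran from −3.61 without RES sow 7 to −1.98 without FF sow 12, and from −4.13 (upper quality group) to −1.61 (lower; −3.20 there without RES sow 7) elsewhere. Among other named genes, the sign turned for HAPLN3 without FF sow 10 (−0.18 to 0.05 over the libraries left out) and, in the lower quality group, for RECK (0.11) and ITGB1 (0.20), both called in the upper group (−0.74 and −0.31). The lower quality group alone gave 1 call over all genes, 0 members and 0 list genes, and voom with sample weights gave 3193, 2 and 20, against 1610, 1 and 10. The upper quality group alone called 18 list genes. Leaving out 1 library gave 1182 to 2350 genes, 1 to 2 members and 6 to 15 list genes, with the highest count over all genes without RES sow 7. DESeq2 called 1935 genes. With 0 correlations past the adjustment, Spearman's rho, TMM scaling, 2 sows left out and FF sow 10 left out also gave 0. The replicate numbers name different sows and did not pair them (1 of 13 pairs with r over 0.1, 0 correlating best with their own number), and with the replicate block 1084 genes, 1 member and 5 list genes were called. Depth limits ADAMTS4 and ADAMTS15, which lie near or under the mean count of 5.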
